A study of Rattus norvegicus with 743 samples.

Results

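Hepcidin and 7 other genes of iron handling were followed in rat liver across a collection of drug studies, in which RNA was sequenced from frozen livers taken 24 hours after the last dose. The 8 genes (Hamp, Tfrc, Tfr2, Slc40a1, Ftl1, Fth1, Bmp6 and Id1) were chosen by their gene names in the deposited count table, out of 32892 gene rows, and of the 2 rows named Slc40a1 that with the larger total was used. The collection holds 377 libraries of treated rats and 366 of vehicle rats, from 680 animals by label, in 99 treated groups (95 treatments) and 83 vehicle groups of 75 studies. Vehicle rats that shared study, batch number and vehicle with a treated group served as its control, which gave 97 comparisons in rats of the Han Wistar or the Sprague Dawley strain, most of them dosed for 4 days and usually with 4 animals in each group. Rats were male except in 17 libraries. The labels give neither the route nor the age, and the dose unit, written mkd there, was read as mg per kg per day. They give animals a number but say nothing of litters or cages.

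Iron leaves cells through ferroportin, the product of Slc40a1, and hepcidin, the peptide hormone that hepatocytes make from Hamp, binds ferroportin and closes that route. Hepatocytes raise Hamp when BMP6, made by sinusoidal endothelial cells, acts through SMAD proteins, and when interleukin-6 acts through STAT3. Id1 and Smad7 are further targets of the BMP and SMAD route in liver. Transferrin receptor 2, from Tfr2, is a hepatocyte sensor of iron-loaded transferrin that raises hepcidin. Transferrin receptor 1, from Tfrc, takes up transferrin iron, and its mRNA is kept longer when cells are short of iron. The ferritin light and heavy chains, from Ftl1 and Fth1, form the shell that stores iron, and their genes are known targets of the stress-responsive factor NRF2 as well as of iron itself.

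Promoters of 6 of the 8 genes were found by symbol in a RefSeq table of build GRCr8. Those of Hamp and Tfrc are shown because the levels of these genes ran against each other among vehicle animals, as described further on, and because they hold letters that were searched for. Each line gives the 250 bases before the annotated start, written in the direction of transcription, and capitals mark a match. The Hamp window lies at chr1:95300272-95300521 on the minus strand and the Tfrc window at chr11:81690319-81690568 on the minus strand.
Hamp: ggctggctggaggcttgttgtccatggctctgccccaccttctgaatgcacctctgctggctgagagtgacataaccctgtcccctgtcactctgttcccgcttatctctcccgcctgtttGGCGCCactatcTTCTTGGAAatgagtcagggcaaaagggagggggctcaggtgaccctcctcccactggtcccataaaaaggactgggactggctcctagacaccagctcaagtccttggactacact
Tfrc: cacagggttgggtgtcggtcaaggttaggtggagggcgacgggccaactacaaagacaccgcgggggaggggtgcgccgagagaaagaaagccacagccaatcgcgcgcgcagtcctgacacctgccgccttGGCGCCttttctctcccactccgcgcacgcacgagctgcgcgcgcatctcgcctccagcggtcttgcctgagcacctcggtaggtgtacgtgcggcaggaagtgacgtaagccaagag
The motifs searched for were GGCGCC, a core of BMP-responsive elements described for mouse Id1, TTCNNNGAA, a STAT site, and CACGTG, an E-box. Each reads the same on both strands, and the matches did not overlap. GGCGCC stood at −129 to −124 from the Hamp start and at −118 to −113 from the Tfrc start, and TTCNNNGAA stood at −117 to −109 in Hamp, as TTCTTGGAA. Among 33469 promoter windows of this length, 8.69% held GGCGCC, 7.67% held TTCNNNGAA and 5.59% held CACGTG, so each match is also common elsewhere. The windows of Tfr2, Slc40a1, Bmp6 and Id1 held none of the 3, and CACGTG was in none of the 6. A match is only a run of letters in this window.

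Library totals ran from 0.312 to 45.5 M counts (M for mega), with a median of 18.2 M, and were at least 11.2 M outside the PCN study, which had at most 10 M. The RNA integrity number (RIN) lay between 2.2 and 9.5, the median library having 8.4. It was on average higher in treated than in vehicle animals in 71 comparisons and lower in 25, by a median of 0.2. Hepatocyte genes led the libraries, with a median of 62578 FPKM, the deposited level scaled to gene length and depth, for albumin in vehicle livers, and markers of Kupffer cells (Clec4f, 73.5 FPKM), sinusoidal endothelium (Lyve1, 17.4 FPKM) and blood (Hbb, 406 FPKM) were present. In such whole-tissue RNA, fewer cells of a type and less RNA per cell cannot be told apart. Several comparisons share vehicle animals. By label, 15 vehicle groups served more than 1 comparison. In addition, 7 pairs of vehicle groups with different study labels (27 pairs of animals) matched animal by animal in their genome-wide values, with correlations of 0.51 to 0.81 for animals of the same number ending and at most 0.09 for any other pair. The 2 pairs of groups of equal size labelled as the same animals had the same range, 0.51 to 0.81. Groups of unequal size were not matched. The vehicle groups of cimetidine and propranolol, which share animals by label, are therefore not among these pairs. The 7 pairs are those of caffeine with sudoxicam, furosemide with chlorpropamide and pentoxifylline, carbamazepine with nefazodone, flutamide with ticlopidine, amiodarone with tetracycline, tolcapone with cefprozil, and esomeprazole with metformin. The minimum correlation of 0.4 used to pair them was set after the values were seen. Comparisons were kept as labelled, so the counts of comparisons below are not counts of independent experiments.

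Between genes, levels were compared per length in the deposited FPKM, over 310 vehicle animals. Fth1 had the highest median, 1140 FPKM, followed by Ftl1 with 616 FPKM, Hamp with 167 FPKM, Tfr2 with 159 FPKM, Slc40a1 with 41.9 FPKM, Tfrc with 20.8 FPKM, Id1 with 2.66 FPKM and Bmp6 with 0.95 FPKM. Hamp and Tfr2, which are neighbours in that order, were not apart, because Hamp covered 0.974 to 634 FPKM, a 651-fold range that holds the whole range of Tfr2 (58.4 to 218 FPKM) and of Slc40a1 (11.6 to 75.4 FPKM). Fth1 covered 311 to 1675 FPKM and Ftl1 276 to 1676 FPKM. The level of Ftl1 is uncertain: the deposited RefSeq table gives it 3.82 times the counts of the Ensembl table, and the difference followed the Ensembl row LOC100360087 over libraries (Pearson r 0.980 over 743 libraries), so reads of Ftl1 and of that row could be split between near-identical copies. Bmp6 had 2.57 times the counts in the RefSeq table, and the other 6 genes differed by a factor of 0.992 to 1.01.

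Hamp was the most variable of the 8 genes among animals that had received no drug. Between animals of the same vehicle group its standard deviation (SD) was 1.66 on the log2(CPM + 0.5) scale, where CPM is the count scaled to the library total, over 309 animals of 79 groups. Only 1 of the 7239 genes tested in every comparison had a larger SD (AC094053.1, 1.83). Tfrc and Id1 followed among the 8 genes, each with 0.47, then Ftl1 with 0.29, Bmp6 with 0.27, Slc40a1 with 0.20, Tfr2 with 0.15 and Fth1 with 0.12. The lowest vehicle animal had 0.397 CPM of Hamp, the median animal 61.2 CPM and the highest 285 CPM. In 38 of the 79 groups the highest animal had at least 10 times the Hamp of the lowest, which was the case in 0 groups for each of the other 7 genes. Libraries made again from the same animal in the same batch differed far less, with an SD of 0.19 for Hamp over 40 animals and 84 libraries. With repeats in other batches included, it was 0.31 over 59 animals and 122 libraries. The largest difference between libraries of the same animal was then 2.32 on the log2 scale. The spread among animals moved little with RIN (Pearson r −0.09) or with the log2 library total (r 0.03), both over 309 animals. With each matched set of vehicle animals used once, a choice made after the sets were seen, the SD of Hamp was 1.65 over 282 animals.

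**Figure D1:**
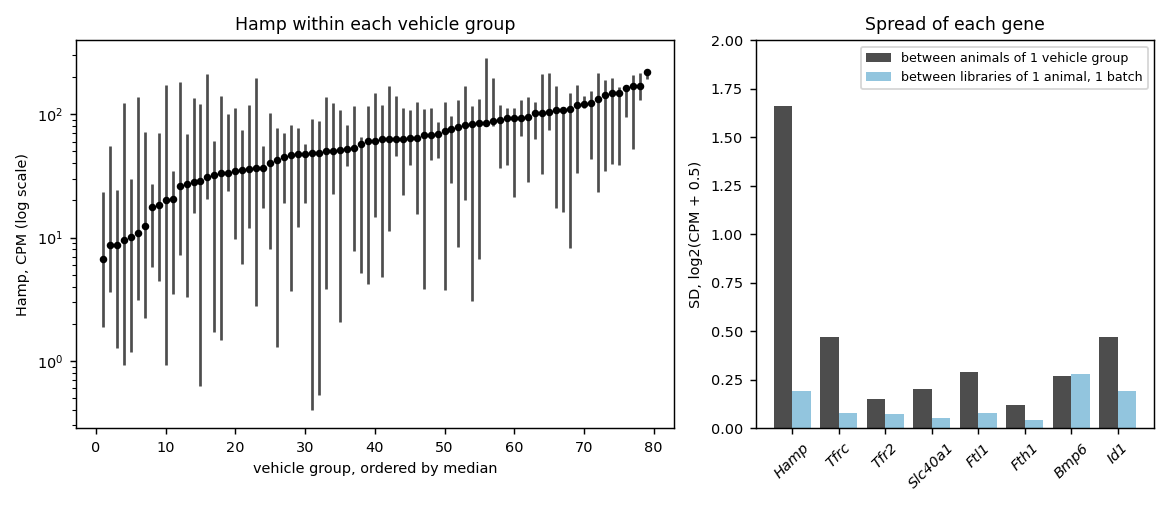
Left, Hamp in each of 79 vehicle groups, ordered by median: points are group medians and bars run from the lowest to the highest animal, in CPM on a log scale. Right, SD of each gene on the log2(CPM + 0.5) scale between animals of the same vehicle group (dark bars) and between libraries of the same animal and batch (light bars). Hamp stands at 1.66 against 0.19, while Bmp6, with few counts, has 0.27 between animals and 0.28 between libraries.

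The genes that followed Hamp from animal to animal were sought among 6862 genes, as the correlation of deviations from the vehicle group mean over 309 animals, which share libraries and depth. The closest were Usf2 (r 0.58), Id2 (0.56), Ptpn12 (0.49), Smad7 (0.48) and Dhcr7 (0.47). Usf2, which encodes an E-box transcription factor, is the gene next to Hamp in the RefSeq annotation, and with the counts of the RefSeq table its r was 0.50. Id2 and Smad7 are targets of SMAD proteins, as is Id1, whose r with Hamp was 0.45. Across the 18 tested genes of the BMP and SMAD list the median r with Hamp was 0.10, and Id2 was the highest of them. The acute phase and STAT3 list had the same median, 0.10, and its closest gene, A2m, had 0.19. At the other end stood Hist1h1c (−0.41) and Tfrc (−0.37): animals with less Hamp than their group had more of the iron uptake receptor. Among cell type markers, the 9 endothelial genes had a median r of −0.16 with Hamp (lowest Oit3, −0.22), the 11 Kupffer cell genes −0.03 and the 7 hepatocyte genes 0.07, and erythroid Hbb had −0.05. For Id1, the closest genes by the same measure were Smad7 (0.52), Id2 (0.51) and Id3 (0.47).

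A difference was called where edgeR's quasi-likelihood test gave a Benjamini-Hochberg adjusted p under 0.05 over all genes tested in that comparison. Over the 97 comparisons and all genes, 9.53% of tests were called, 4.97% higher and 4.55% lower. Hamp was called in 7 of 97 comparisons (7.22%), 2 higher and 5 lower, which is near that background. It nevertheless differed by more than 1 on the log2 scale in 44 comparisons, of which 37 were not called, the median standard error (SE) of its log2 fold change being 0.93, against 0.17 over all genes. In all 7 called comparisons the animals of the groups did not overlap, which adds little, because a call favours groups that lie apart. Called or not, treated animals were all higher in 6 and all lower in 9 of the 97 comparisons. The share of such groups over all genes was not computed. With RIN as a covariate, which takes up a degree of freedom, the count fell to 2, PCN and diclofenac. With DESeq2 in place of edgeR it was 15. The 9.53% background belongs to the main edgeR fit. No share over all genes is given for other settings, here or below. A general shift in calls therefore cannot be told from one in these genes.

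**Figure D2:**
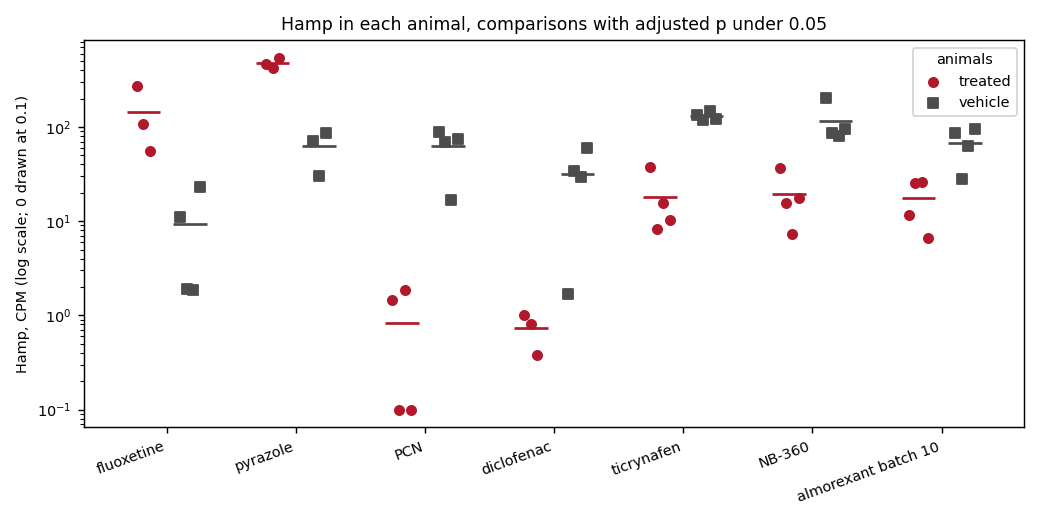
Hamp in each animal, in CPM on a log scale with 0 drawn at 0.1, for the 7 comparisons with an adjusted p under 0.05. Circles are treated animals, squares vehicle animals, and lines are means. Treated animals lie above all vehicle animals after fluoxetine and pyrazole, and below all of them in the other 5.

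Fluoxetine, an inhibitor of serotonin reuptake, was given to Han Wistar rats at 400 mg/kg for 4 days in 0.5% methylcellulose. Hamp was at 273, 108 and 55.5 CPM in the 3 fluoxetine rats, against 11, 1.91, 1.84 and 22.9 CPM in the 4 vehicle rats. All 3 fluoxetine rats were above every vehicle rat, although each group spread widely. The log2 fold change was 3.94 ± 0.92 (SE; edgeR adjusted p = 0.00995), in a comparison in which 47.1% of genes were called. Id1 rose with it, at 9.91, 3.19 and 6.97 CPM in fluoxetine rats, against 1.98, 1.49, 1.31 and 2.08 CPM in vehicle rats, without overlap (log2 fold change 1.96 ± 0.37, edgeR adjusted p = 0.00388). Id2 rose as well (log2 fold change 0.65), whereas Hjv, the BMP co-receptor hemojuvelin (−0.88), Tmprss6, the protease that cleaves it (−1.06), and Bmp6 (−1.24) fell. Of the 19 tested genes of the BMP and SMAD list, 4 rose and 5 fell. In the acute phase and STAT3 list 11 of 13 genes rose and 0 fell, with a median log2 fold change of 3.14, among them Socs3, a STAT3 target (3.38). Of the iron and heme handling genes, Lcn2, which encodes a siderophore-binding protein, rose by 12.00, the hemopexin gene Hpx, of heme transport, by 3.24, and Slc39a14, a carrier of iron not bound to transferrin, by 2.62. Summed neutrophil markers ran from 5.26 to 31.6 CPM in fluoxetine rats, against 0.331 to 0.835 CPM in vehicle rats (3 of 3 tested genes rose). Summed erythroid markers ran from 118 to 217 CPM, against 387 to 718 CPM in vehicle rats (4 of 4 fell). Their part in the Hamp result was not tested. With RIN as a covariate the Hamp fold change was 2.21 and was not called (edgeR adjusted p = 0.353), and the Id1 fold change was 2.50 and not called (0.0517).

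Pyrazole, an inhibitor of alcohol dehydrogenase, was given to Han Wistar rats of both sexes at 200 mg/kg for 4 days in saline. Hamp was at 471, 428 and 540 CPM in pyrazole rats, against 71.4, 30 and 85.4 CPM in vehicle rats. The 3 pyrazole values lay close together and above every vehicle rat of the comparison. The log2 fold change was 2.82 ± 0.35 (SE, with sex in the model; edgeR adjusted p = 0.00807), where 11.1% of genes were called. Tfrc, of iron uptake, rose too (log2 fold change 1.47). Without the second pyrazole rat the Hamp call was lost (edgeR adjusted p = 0.0929), as it was with RIN as a covariate (0.0837), mean RIN being 8.83 in pyrazole and 6.9 in vehicle rats. Of the acute phase list, 1 of 13 genes rose and 1 fell, with a median log2 fold change of −0.03. In the BMP and SMAD list 0 of 19 genes rose and 1 fell, Atoh8 (−0.45), which encodes a factor that binds the hepcidin promoter. Among erythroid genes, Alas2, the heme synthesis enzyme of red cell precursors, fell by 6.18 on the log2 scale, and the hemoglobin gene Hba-a2 fell by 5.91. Of 4 tested erythroid genes 3 were called lower, and their summed level ran from 6.62 to 13 CPM in pyrazole rats, against 269 to 383 CPM in vehicle rats. Kupffer cell markers fell in 10 of 11 genes, with sums of 234 to 301 CPM in pyrazole rats, against 537 to 599 CPM in vehicle rats. The part of either in the Hamp result was not tested.

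PCN, pregnenolone 16alpha-carbonitrile, the prototype activator of the receptor PXR in rats, was given to Han Wistar rats at 500 mg/kg for 7 days in 0.4% hydroxypropyl methylcellulose. Hamp was at 1.44, 0, 1.87 and 0 CPM in PCN rats, against 87.4, 69.6, 16.6 and 74.7 CPM in vehicle rats. All 4 PCN rats were under every vehicle rat. The libraries were small: the PCN rats had 2, 0, 3 and 0 Hamp counts in totals of 0.312 to 1.74 M, so that in the smallest library 3 counts would be 9.61 CPM. Summed over animals, PCN rats had 5 counts in 4.65 M and vehicle rats 953 counts in 14.3 M, which puts the PCN level at 1.61% of the vehicle level (95% exact binomial interval 0.521 to 3.77%, counting error only). The fitted log2 fold change was −5.74 ± 0.89 (SE; edgeR adjusted p = 0.00983), where 6.13% of genes were called. Without the first PCN rat the adjusted p was 0.0527. Id2 fell (log2 fold change −1.38), and so did Steap3, a ferrireductase of transferrin iron uptake (−1.84). Slc40a1 was lower and Ftl1 higher. Kupffer cell markers summed to 164 to 478 CPM in PCN rats, against 341 to 589 CPM in vehicle rats, with 0 of 11 called.

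Diclofenac, a non-steroidal anti-inflammatory drug, was given to Sprague Dawley rats at 50 mg/kg for 4 days in 0.5% methylcellulose. Hamp was at 1.02, 0.817 and 0.379 CPM in diclofenac rats, against 1.7, 34.2, 29.2 and 60.4 CPM in vehicle rats. The groups did not overlap, though the lowest vehicle rat came within 1 CPM of the highest diclofenac rat. This is a log2 fold change of −5.39 ± 1.14 (SE; edgeR adjusted p = 0.0112), where 28.3% of genes were called. Id1, by contrast, rose (log2 fold change 1.46 ± 0.31, edgeR adjusted p = 0.0118), at 8.85, 5.56 and 4.26 CPM in diclofenac rats, against 2.55, 2.92, 1.54 and 2.01 CPM in vehicle rats. In the acute phase list 12 of 13 genes rose and 0 fell (median log2 fold change 2.22), among them Orm1, an acute phase glycoprotein (5.73). Lcn2, of iron transport, rose by 11.31, Hpx by 2.79 and Hmox1, which breaks heme down, by 2.78. Hfe, a partner of the transferrin receptors in iron sensing, fell by 1.29. Kupffer cell markers rose in 9 of 11 genes, with sums of 1449 to 2683 CPM in diclofenac rats, against 475 to 829 CPM in vehicle rats. Neutrophil markers summed to 72.1 to 127 CPM, against 0.567 to 1.12 CPM in vehicle rats (3 of 3 tested genes rose). Their part in the Hamp result was not tested.

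Ticrynafen, a uricosuric diuretic, was given to Sprague Dawley rats at 750 mg/kg for 4 days in 0.5% methylcellulose. Hamp was at 37.4, 8.18, 15.6 and 10.3 CPM in ticrynafen rats, against 133, 118, 149 and 121 CPM in vehicle rats. The 4 vehicle rats lay close together, and the groups did not overlap. Hamp fell by 2.87 ± 0.47 on the log2 scale (SE; edgeR adjusted p = 0.0136), where 10.8% of genes were called. In the BMP and SMAD list 1 of 19 genes rose and 3 fell (median log2 fold change −0.13): Smad7 fell by 0.81, Id3 by 0.90 and Atoh8 by 0.91, while the SMAD targets Id2 (−0.25) and Smad6 (−0.26) were not called. Id1 was at 1.74, 1.51, 0.929 and 1.52 CPM in ticrynafen rats, against 2.48, 2.31, 4.94 and 6.77 CPM in vehicle rats, and fell without overlap (log2 fold change −1.51 ± 0.36, edgeR adjusted p = 0.0294). Hfe rose by 0.97. Mean RIN was 8.7 in ticrynafen rats and 7.75 in vehicle rats, and with RIN as a covariate both the Hamp fold change of −3.57 and the Id1 fold change of −1.89 had an adjusted p of 0.815 in edgeR. Leaving out any treated rat, or vehicle rat 3 or 4, also ended the Id1 call (largest adjusted p 0.0786). Erythroid markers summed to 58.1 to 119 CPM in ticrynafen rats, against 304 to 482 CPM in vehicle rats. Kupffer cell markers fell in 8 of 11 genes (433 to 517 CPM in ticrynafen rats, 562 to 867 CPM in vehicle rats). Their part in these results was not tested.

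NB-360, an inhibitor of the protease BACE1, was given to Han Wistar rats at 750 mg/kg for 5 days in a mixture of HPMC, polysorbate 80 and PEG 400. Hamp was at 36.8, 15.5, 7.37 and 17.8 CPM in NB-360 rats, against 202, 86.4, 80.4 and 94.3 CPM in vehicle rats, without overlap. The log2 fold change was −2.58 ± 0.55 (SE; edgeR adjusted p = 0.014), where 26.6% of genes were called. Almorexant, an orexin receptor antagonist, was given to female Sprague Dawley rats at 750 mg/kg for 7 days in PEG 400. Hamp was at 11.6, 25.7, 26.1 and 6.67 CPM in almorexant rats, against 86.3, 27.7, 62.2 and 96.2 CPM in vehicle rats, the lowest vehicle rat lying just above the highest almorexant rat. The log2 fold change was −1.95 ± 0.50 (SE; edgeR adjusted p = 0.0156), where 35.6% of genes were called. Livers of 3 of these almorexant rats and 1 of the vehicle rats were also sequenced in another batch, which allows no test. With both batches scaled over all libraries, the 3 almorexant rats had 17.9, 24.9 and 4.59 CPM in batch 2 and, in the same order, 12.2, 26.9 and 28.1 CPM in batch 10, against 75 CPM in batch 2 and 96.5 CPM in batch 10 in the vehicle rat. The third rat's Hamp thus differed several-fold between its libraries of the 2 batches, while all 3 lay below the vehicle rat in both. Neither difference was called with RIN as a covariate (edgeR adjusted p = 0.457 after NB-360 and 0.0527 after almorexant), although the log2 fold change stayed between −2.58 and −2.18 after NB-360 and between −2.22 and −1.68 after almorexant over all settings tried. In the BMP and SMAD list 1 gene rose and 6 fell after NB-360, and 2 rose and 6 fell after almorexant, of 19 tested in each. Atoh8 fell by 1.36 after NB-360, and Id3 fell in both (by 0.81 and 1.05). Kupffer cell markers fell in 10 of 11 genes in both. They summed to 204 to 343 CPM in NB-360 rats, against 536 to 739 CPM in their vehicle rats, and to 104 to 243 CPM in almorexant rats, against 606 to 857 CPM in theirs. Endothelial markers, of the cells that make BMP6, fell in 9 of 10 genes after almorexant (62.9 to 147 CPM, against 210 to 307 CPM in vehicle rats) and in 4 of 10 after NB-360. Erythroid markers fell in 3 of 6 tested genes after NB-360 (418 to 498 CPM, against 804 to 1722 CPM in vehicle rats) and in 5 of 5 after almorexant (27.1 to 108 CPM, against 463 to 1093 CPM in vehicle rats). Whether these shifts in other cell types bear on Hamp was not tested.

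Many large Hamp differences were not called. The following comparisons were picked after the values were seen, as 4 of the 12 with a fold change beyond 2 on the log2 scale and no call. After levofloxacin Hamp was at 0.0606, 1.82, 2.34 and 0.961 CPM, against 94.9, 53, 48.9 and 0.416 CPM in vehicle rats, so that a single low vehicle rat made the groups overlap (log2 fold change −5.25 ± 1.30, edgeR adjusted p = 0.126). After LY2886721, a second BACE1 inhibitor, Hamp was at 12.4, 1.41, 1.22 and 2.44 CPM, against 95.4, 131, 65.9 and 91.7 CPM in vehicle rats, without overlap but with an adjusted p of 0.0502 in edgeR. After nabumetone it was at 6.6, 1.76, 2.39 and 0.599 CPM, against 97.3, 8.07, 116 and 145 CPM in vehicle rats (edgeR adjusted p = 0.0541). Disopyramide rats had 36, 118, 57.5 and 90.2 CPM, against 10.1, 9.8, 29.4 and 1.17 CPM in vehicle rats (log2 fold change 2.58, edgeR adjusted p = 0.14). Animals of the treated and vehicle groups overlapped for Hamp in 82 of the 97 comparisons. Among the other genes followed, overlap ran from 66 of 97 (Tfr2) to 85 of 96 (Id1). With so few animals some groups lie apart by chance, and the share over all genes was not computed.

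Hamp was set beside the acute phase, since interleukin-6 is known to raise both. In 11 comparisons at least 6 of the 13 acute phase genes were called higher, a minimum chosen after the data were seen. Among these, Hamp was called higher in 1 (fluoxetine) and lower in 1 (diclofenac), and its fold change was above 0 in 3 and below 0 in 8. Mean Hamp was at 4.16 CPM in naproxen rats, against 52 CPM in their vehicle rats, while 12 of 13 acute phase genes rose. In sudoxicam rats it was at 24.7 CPM, against 72.4 CPM in vehicle rats, with 13 of 13 acute phase genes higher. Telcagepant rats had 92.4 CPM, against 49.7 CPM in vehicle rats, with 6 acute phase genes higher. The fold changes of Hamp in naproxen, sudoxicam and telcagepant rats were not called. In the 9 comparisons in which A2m, the rat acute phase macroglobulin, was called higher, the median log2 fold change of Hamp was −1.55 (range −5.39 to 3.94), against −0.28 in the other 88. Id1 was above 0 in 8 of these 9 (3 called higher) and Tfrc in 9 of 9 (4 called higher). These 9 include comparisons with many genes called, such as fluoxetine (47.1%) and naproxen (37.2%). The share of all genes called higher in them was not computed. Over all 97 comparisons the fold change of Hamp went most closely with Usf2 (r 0.62) and Id2 (0.50), as a description over comparisons that share vehicle animals, and with Id1 only at r 0.28.

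**Figure D3:**
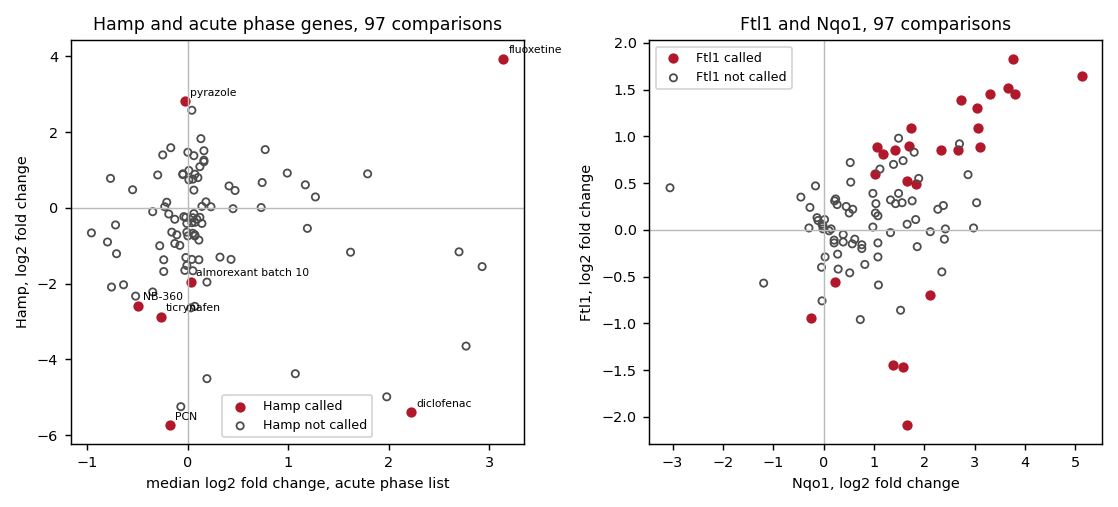
Left, log2 fold change of Hamp against the median log2 fold change of the 13 acute phase and STAT3 genes, a point per comparison (97). Right, log2 fold change of Ftl1 against that of Nqo1. Filled points are comparisons with an adjusted p under 0.05 for Hamp (left) or Ftl1 (right). Fluoxetine (3.94) and diclofenac (−5.39) lie at opposite ends for Hamp although both have high acute phase medians (3.14 and 2.22), and the Ftl1 decreases of −1.45 to −2.09 lie to the right of 0 for Nqo1.

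Bmp6, the ligand that endothelial cells send to hepatocytes, was tested in 95 comparisons and called in 6 (6.32%), 1 higher and 5 lower, and in 2 with RIN as a covariate. Its levels were low, which limits what these counts can show. After azithromycin, a macrolide antibiotic (600 mg/kg, Sprague Dawley, 4 days), Bmp6 was at 0.602, 0.917, 0.459 and 0.885 CPM, against 2.11, 2.04, 1.64 and 1.87 CPM in vehicle rats. No azithromycin rat reached the lowest vehicle rat (log2 fold change −1.40 ± 0.27, edgeR adjusted p = 0.0021), in a comparison with 47.1% of genes called. Sinusoidal endothelial markers fell in 9 of 10 genes (median log2 fold change −1.90) and summed to 57.6 to 142 CPM in azithromycin rats, against 315 to 346 CPM in vehicle rats. Their part in the Bmp6 result was not tested. After sitaxsentan, an endothelin receptor antagonist (600 mg/kg, Han Wistar, 4 days; 29.1% called), it was at 0.603, 0.573, 0.665 and 0.494 CPM, against 1.05, 1.65, 1.39 and 1.46 CPM in vehicle rats, again apart (−1.26 ± 0.23, edgeR adjusted p = 0.00614, and 0.327 with RIN as a covariate), with 4 of the 10 endothelial markers higher and 2 lower. After naproxen (400 mg/kg, Sprague Dawley, 4 days; 37.2% called) the 2 treated rats had 0.706 and 0.735 CPM, against 1.76, 1.17, 2.14 and 2.6 CPM in vehicle rats (−1.41 ± 0.41, edgeR adjusted p = 0.0274). That call was lost without either treated rat or without vehicle rat 3 or 4 (largest adjusted p 0.106), and with RIN as a covariate (0.111), and here 6 of the 10 endothelial markers rose and 1 fell. The single increase followed bardoxolone, with 2.11, 1.82 and 2.69 CPM, against 1.61, 1.26 and 1.13 CPM in vehicle rats (0.72 ± 0.23, edgeR adjusted p = 0.046), and leaving out any of the 6 rats ended it (largest adjusted p 0.151), as did DESeq2. Across 95 comparisons the fold changes of Bmp6 went with those of the endothelial genes Ehd3 (r 0.76) and Kdr, a receptor of vascular growth factor (0.70). Of the 5 Bmp6 decreases, 2 came with lower and 2 with higher Stab2, the sinusoidal scavenger receptor. Stab2 itself was called lower in 7 and higher in 6 of the 95 comparisons.

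Id1, an inhibitor of helix-loop-helix factors and a SMAD target, was called in 6 of 96 comparisons (6.25%), 5 higher and 1 lower, against 13 with DESeq2 and 3 with RIN as a covariate. Besides fluoxetine and diclofenac it was higher after methimazole, an inhibitor of thyroid hormone synthesis (600 mg/kg, Han Wistar, 4 days; 23.8% of genes called), at 3.78, 3.47, 7.95 and 3.51 CPM, against 2.29, 3.2, 2.34 and 1.71 CPM in vehicle rats. The groups were narrowly apart, and a single methimazole rat was far above the rest (log2 fold change 0.97 ± 0.31, edgeR adjusted p = 0.0474, and 0.107 with RIN as a covariate). Sudoxicam and clarithromycin gave smaller increases (0.86 and 0.77). Hamp and Id1 were both called higher after fluoxetine and both lower after ticrynafen, and they were called in opposite directions after diclofenac.

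Tfr2, the hepatocyte iron sensor, was called in 18 of 97 comparisons (18.6%), 3 higher and 15 lower, with small log2 fold changes between −1.06 and 0.82. DESeq2 called 30, and edgeR with RIN as a covariate 7. After ritonavir, an HIV protease inhibitor (400 mg/kg, Han Wistar, 4 days), Tfr2 was at 374, 226, 282, 311, 266 and 287 CPM in 6 rats, against 568, 671, 667 and 514 CPM in vehicle rats. The highest ritonavir rat stayed under the lowest vehicle rat (log2 fold change −1.06 ± 0.13, edgeR adjusted p = 5.6e-05), with 41.7% of genes called. Azithromycin rats had 324, 275, 309 and 282 CPM, against 576, 643, 584 and 522 CPM in vehicle rats, also apart (−0.97 ± 0.09, edgeR adjusted p = 3.77e-05). Hepatocyte markers fell in 5 of 7 genes after both, summing to 74143 to 121694 CPM in ritonavir rats, against 160560 to 196876 CPM in vehicle rats, and to 68020 to 78610 CPM in azithromycin rats, against 169919 to 198108 CPM in vehicle rats. Their part in the Tfr2 results was not tested. The 3 increases all followed anti-inflammatory drugs in Sprague Dawley rats dosed for 4 days. Naproxen rats had 1017 and 917 CPM, against 531, 534, 517 and 609 CPM in vehicle rats (0.82 ± 0.14, edgeR adjusted p = 0.00264). Sudoxicam rats (100 mg/kg; 36.5% called) had 946, 622 and 638 CPM, against 434, 461, 430 and 354 CPM in vehicle rats (0.81 ± 0.21, edgeR adjusted p = 0.0181). Lumiracoxib rats (400 mg/kg; 19.1% called) had 812, 895 and 793 CPM, against 413, 534, 542 and 513 CPM in vehicle rats (0.74 ± 0.17, edgeR adjusted p = 0.0214). Every treated rat of the 3 groups was above its vehicle rats. The increases after sudoxicam and lumiracoxib were not called with RIN as a covariate (edgeR adjusted p = 0.158 and 0.226). Fold changes of Tfr2 went most closely with Serping1, the complement C1 inhibitor, and St6gal1, a sialyltransferase (r 0.82 each over 97 comparisons), and ran against those of Ftl1 (r −0.61).

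Tfrc, the uptake receptor, was called higher in 18 of 97 comparisons (18.6%) and lower in 0. The unadjusted p was under 0.05 in 46 comparisons in either direction, and DESeq2 called 31 in either direction. Its fold change was above 0 in 69 comparisons and below 0 in 28. After NB-360 Tfrc was at 379, 479, 576 and 478 CPM, against 141, 117, 127 and 138 CPM in vehicle rats. Each NB-360 rat had more than 2 times the highest vehicle value (log2 fold change 1.87 ± 0.13, edgeR adjusted p = 2.95e-06). After sitaxsentan it was at 617, 520, 361 and 452 CPM, against 219, 149, 119 and 148 CPM in vehicle rats, apart as well (1.62 ± 0.23, edgeR adjusted p = 0.00228). Telcagepant, an antagonist of the CGRP receptor (400 mg/kg, Sprague Dawley, 4 days), gave the largest fold change: 172, 564, 378 and 152 CPM, against 68.1, 89.3, 53.5 and 88 CPM in vehicle rats. That difference (2.08 ± 0.44, edgeR adjusted p = 0.0336, where 4.79% of genes were called) was lost without treated rat 2 or without any of the vehicle rats (largest adjusted p 0.119). The other increases included nitrofurantoin (1.52), propranolol (1.46), atorvastatin (1.17) and almorexant (1.34). With RIN as a covariate 5 Tfrc calls were made, NB-360 still among them (edgeR adjusted p = 0.0103) and sitaxsentan not (0.34). Of the 18 increases, 7 came with lower and 2 with higher Alas2, and 1 came with higher and 2 with lower Mki67, a marker of cycling cells. Alas2 itself was called lower in 21 and higher in 2 of 96 comparisons. Mki67 was called lower in 10 and higher in 3 of 97. Nqo1, an NRF2 target, was called higher in 33 comparisons, and Tfrc was called higher in 13 of them. The median log2 fold change of Tfrc was 0.68 there, against 0.25 in the other 64. These 33 include comparisons with many genes called, such as ticlopidine (49.2%) and flutamide (48%). The share of all genes called higher in them was not computed.

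**Figure D4:**
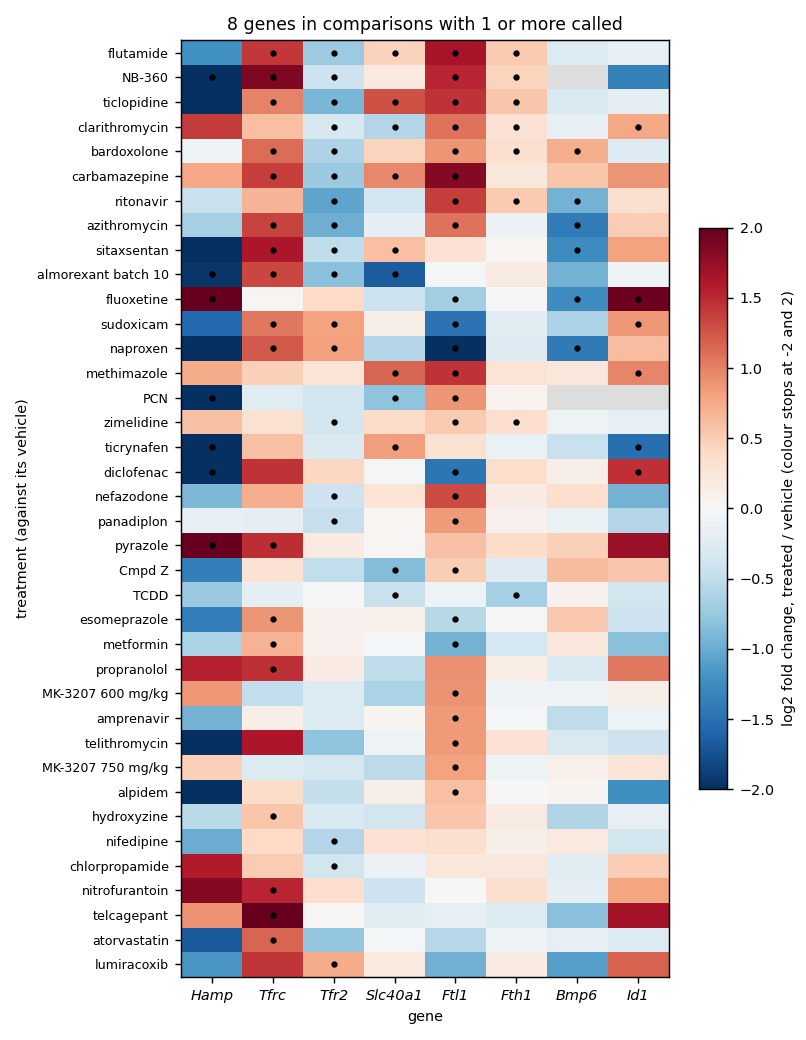
Log2 fold change of the 8 genes (columns) in the 38 comparisons with at least 1 of them called (rows), treated over vehicle. Red is higher and blue lower, the colour stops at −2 and 2, a dot marks an edgeR adjusted p under 0.05, and grey cells were not tested. The 18 dots of Tfrc are all red, 15 of the 18 dots of Tfr2 are blue, and Hamp has strong colours with only 7 dots.

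Slc40a1, encoding the iron exporter ferroportin, was called in 11 of 97 comparisons (11.3%), 6 higher and 5 lower, and in 20 with DESeq2. After ticlopidine, an inhibitor of platelet P2Y12 receptors (600 mg/kg, Han Wistar, 4 days, in water), it was at 304, 432, 288 and 392 CPM, against 157, 139, 120 and 168 CPM in vehicle rats. After methimazole it was at 289, 300, 396 and 315 CPM, against 127, 176, 132 and 148 CPM in vehicle rats. The animals were apart in both (log2 fold changes 1.28 ± 0.15 and 1.16 ± 0.14, edgeR adjusted p = 9.85e-05 and 0.000593). After carbamazepine, an anticonvulsant (600 mg/kg, Han Wistar, 4 days; 40.7% called), it was at 188, 361, 183 and 292 CPM, against 115, 119, 147 and 147 CPM in vehicle rats (0.96 ± 0.22, edgeR adjusted p = 0.00838), but with RIN as a covariate the estimate was −0.09 (edgeR adjusted p = 0.95). Almorexant rats had 39.5, 97.6, 43.5 and 97.8 CPM, against 192, 246, 212 and 238 CPM in vehicle rats, the largest decrease (−1.67 ± 0.32, edgeR adjusted p = 0.0049). In batch 2, scaled over all libraries, Slc40a1 was at 38, 96.4 and 36.3 CPM in 3 of these almorexant rats, against 188 CPM in 1 vehicle rat, and on that scale the same rats had 41.5, 102 and 46.8 CPM in batch 10, against 239 CPM in that vehicle rat. Kupffer cells also use ferroportin. Their markers fell in 10 of 11 genes after almorexant, with the sums given above, but in 11 of 11 genes after ticlopidine, methimazole and carbamazepine, where Slc40a1 rose. They summed to 248 to 509 CPM in methimazole rats, against 632 to 812 CPM in vehicle rats, and to 266 to 358 CPM in carbamazepine rats, against 465 to 607 CPM in vehicle rats. Their part in the Slc40a1 results was not tested. Cmpd Z rats (400 mg/kg, Han Wistar, 4 days; 39.2% called) had 75.7, 116, 61.2 and 53.1 CPM, against 133, 138, 157 and 125 CPM in vehicle rats (−0.86 ± 0.22, edgeR adjusted p = 0.0109). PCN rats had 20.9, 40.2, 30.6 and 21.7 CPM, against 67.1, 44.9, 54.3 and 41.6 CPM in vehicle rats (−0.80 ± 0.21, edgeR adjusted p = 0.0254), a call that ended without 5 of the 8 rats in turn (largest adjusted p 0.126) and with the RefSeq table (0.0895). Slc40a1 and Hamp fell together after PCN and almorexant, and after ticrynafen Slc40a1 rose (0.83) while Hamp fell.

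Ftl1, the ferritin light chain, was called most often of the 8 genes, in 25 of 97 comparisons (25.8%), 19 higher and 6 lower, and in 15 with RIN as a covariate. Of the 7239 genes tested in every comparison, 97% were called less often. Carbamazepine rats had 727, 820, 720 and 727 CPM, against 280, 205, 186 and 172 CPM in vehicle rats. Flutamide, an androgen receptor antagonist (600 mg/kg, Han Wistar, 4 days), gave 889, 942, 732 and 737 CPM, against 250, 238, 279 and 281 CPM in vehicle rats. NB-360 rats had 864, 1292, 1060 and 984 CPM, against 377, 315, 359 and 417 CPM in vehicle rats. In these 3 comparisons each treated rat was above 2 times the highest vehicle rat, with log2 fold changes of 1.83 ± 0.15, 1.65 ± 0.12 and 1.52 ± 0.14 (edgeR adjusted p = 8.14e-06, 1.2e-05 and 2.05e-05). With RIN as a covariate the flutamide call was lost (edgeR adjusted p = 0.101).

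The Ftl1 decreases were led by anti-inflammatory drugs. Naproxen rats had 122 and 82.4 CPM, against 628, 378, 362 and 374 CPM in vehicle rats. Sudoxicam rats had 134, 181 and 225 CPM, against 450, 573, 580 and 386 CPM in vehicle rats. Diclofenac rats had 211, 134 and 153 CPM, against 398, 482, 461 and 473 CPM in vehicle rats. The groups were apart in all 3, and the log2 fold changes were −2.09 ± 0.30, −1.47 ± 0.25 and −1.45 ± 0.19 (edgeR adjusted p = 0.0015, 0.00282 and 0.00172). Smaller decreases followed metformin (−0.94), fluoxetine (−0.70) and esomeprazole (−0.56). The metformin and esomeprazole comparisons share matched vehicle animals. By label, metformin rats were dosed for 3 days and their vehicle rats for 4, so drug and days cannot be told apart there. Of the 19 increases, 13 (68.4%) came with higher Nqo1, which is 39.4% of the 33 comparisons with higher Nqo1. Only called Nqo1 changes are counted, so the increases after bardoxolone (Nqo1 log2 fold change 3.11, not called) and clarithromycin (1.74, not called) are not among the 13. In 4 further comparisons Nqo1 was higher and Ftl1 lower. The share of all genes called higher where Nqo1 was called higher was not computed. Over 97 comparisons the fold changes of Ftl1 went with Scly, a selenocysteine lyase, and Prdx1, a peroxiredoxin (r 0.82 each), and with Akr7a3, an aldehyde reductase (0.80). With the counts of the RefSeq table the 10 called Ftl1 fold changes given with their animals kept their direction and their call, that of carbamazepine being 3.05.

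Fth1, the heavy chain, moved much less: 8 of 97 comparisons were called (8.25%, near the background), 7 higher and 1 lower, against 16 with DESeq2 and 2 with RIN as a covariate. Ticlopidine rats had 1184, 1648, 1353 and 1254 CPM, against 871, 980, 949 and 916 CPM in vehicle rats. Flutamide rats had 1343, 1302, 1219 and 1179 CPM, against 811, 881, 915 and 889 CPM in vehicle rats. Ritonavir rats had 1099, 1189, 1473, 1280, 1339 and 1304 CPM, against 834, 849, 848 and 1033 CPM in vehicle rats. The groups were apart in all 3, with log2 fold changes of 0.55 ± 0.11, 0.53 ± 0.10 and 0.52 ± 0.10 (edgeR adjusted p = 0.00231, 0.00201 and 0.0018), and the flutamide call was lost with RIN as a covariate (edgeR adjusted p = 0.612). In these 3 comparisons the log2 fold change of Ftl1, 1.45, 1.65 and 1.39, was larger than that of Fth1. The decrease followed TCDD, the dioxin that activates the aryl hydrocarbon receptor (0.00015 mg/kg, Han Wistar, 4 days, in corn oil with acetone; 20.9% called). TCDD rats had 210, 216, 255 and 235 CPM, against 318, 404, 353 and 369 CPM in vehicle rats (−0.66 ± 0.10, edgeR adjusted p = 0.00131). Ftl1 was not called (−0.10 ± 0.14, edgeR adjusted p = 0.656). Mean RIN was 9.2 in TCDD rats and 7.88 in vehicle rats, and with RIN as a covariate the Fth1 fold change was −0.39 (edgeR adjusted p = 0.444).

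The comparisons in which most of the 8 genes were called had 5 each. They were NB-360, ticlopidine (49.2% of genes called), flutamide (48%), bardoxolone (28.3%) and clarithromycin (18.9%), and in all 5 Ftl1 and Fth1 rose and Tfr2 fell. Ticlopidine and flutamide share matched vehicle animals, so they are not independent of each other. Ticlopidine rats had 751, 846, 669 and 773 CPM of Ftl1, against 259, 279, 299 and 275 CPM in vehicle rats, and 306, 286, 313 and 295 CPM of Tfr2, against 522, 580, 570 and 586 CPM (log2 fold changes 1.45 and −0.91). Their Tfrc was at 426, 424, 309 and 387 CPM, against 222, 220, 119 and 217 CPM in vehicle rats (0.99 ± 0.20, edgeR adjusted p = 0.00295). Flutamide rats had Tfrc at 542, 424, 644 and 420 CPM, against 217, 233, 115 and 196 CPM in vehicle rats (1.41 ± 0.23, edgeR adjusted p = 0.000977). Slc40a1 was higher after both, although for flutamide the animals overlapped (156, 205, 203 and 203 CPM, against 152, 133, 109 and 162 CPM). Neither flutamide result was called with RIN as a covariate (edgeR adjusted p = 0.17 for Tfrc and 0.59 for Slc40a1). In ticlopidine rats Steap3 fell by 2.08 and the transferrin gene Tf by 0.64, and Slc25a28, the mitochondrial iron importer mitoferrin-2, rose by 1.30. Of the tested genes of iron uptake, transport and storage outside the 8, 6 rose and 7 fell of 19 after ticlopidine, and 7 rose and 7 fell of 20 after flutamide.

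Bardoxolone, a triterpenoid that activates NRF2, was given to Han Wistar rats of both sexes at 10 mg/kg for 4 days in sesame oil. Ftl1 was at 540, 609 and 623 CPM, against 448, 284 and 252 CPM in vehicle rats, and Fth1 at 484, 483 and 415 CPM, against 373, 379 and 350 CPM. Both were apart and called (log2 fold changes 0.89 and 0.32), the Fth1 call being lost without 4 of the 6 rats in turn (largest edgeR adjusted p 0.172). Tfrc was at 131, 152 and 117 CPM, against 65.3, 65.4 and 52.9 CPM in vehicle rats (1.12 ± 0.13, edgeR adjusted p = 0.0011). Tfr2 was at 172, 216 and 184 CPM, against 284, 296 and 295 CPM in vehicle rats (−0.61 ± 0.11, edgeR adjusted p = 0.00578). Hamp was at 65.4, 87.3 and 187 CPM, against 135, 40.6 and 159 CPM in vehicle rats, fully overlapping. Mean RIN was 8.8 in bardoxolone and 7.5 in vehicle rats, and with RIN as a covariate none of the 5 calls was made. Clarithromycin, a macrolide antibiotic (600 mg/kg, Han Wistar, 4 days), differed in that Slc40a1 fell, with 99.7, 85.6, 92 and 113 CPM, against 149, 146, 141 and 148 CPM in vehicle rats (−0.58 ± 0.09, edgeR adjusted p = 0.00223), while Ftl1 was at 568, 756, 599 and 604 CPM, against 294, 320, 250 and 323 CPM (1.09). The NRF2 list rose in 7 of 8 genes after ticlopidine, 8 of 8 after flutamide, 7 of 8 after bardoxolone, 7 of 7 after NB-360 and 5 of 7 after clarithromycin. Kupffer cell markers fell in 6 to 11 of 11 genes in these 5 comparisons and rose in 0, with sums of 229 to 348 CPM in ticlopidine rats, against 560 to 636 CPM in vehicle rats, and of 245 to 319 CPM in flutamide rats, against 534 to 605 CPM. Endothelial markers fell in 4 to 10 of 10 genes in the 5 comparisons and rose in 0, with sums of 290 to 346 CPM in ticlopidine rats, against 437 to 529 CPM, and of 275 to 348 CPM in flutamide rats, against 442 to 498 CPM in vehicle rats. Hepatocyte markers fell in 3 to 5 of 7 genes, 1 rising after flutamide, with sums of 68351 to 89406 CPM in ticlopidine rats, against 176509 to 202075 CPM, and of 83802 to 110856 CPM in flutamide rats, against 170413 to 186753 CPM in vehicle rats. The part of these cell types in the results, the lower Tfr2 included, was not tested.

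Several treatments were reference activators of nuclear receptors. Phenobarbital, the classic activator of the receptor CAR, was given at 100 mg/kg to Han Wistar rats for 7 days and to Sprague Dawley rats for 17 days, and 0% and 1.23% of genes were called. None of the 8 genes was called in either strain in edgeR. In Han Wistar rats Hamp was at 47, 48.8, 54.8, 110 and 34.5 CPM after phenobarbital, against 166, 90.9, 46.4, 132 and 153 CPM in vehicle rats, and in Sprague Dawley rats at 11 and 20.3 CPM, against 65.7, 111 and 40.2 CPM. The groups overlapped in Han Wistar and were apart in Sprague Dawley rats (edgeR adjusted p = 0.213 and 0.182; the log2 fold change in Sprague Dawley rats was −2.22 ± 0.56). Slc40a1 was at 75.7 to 105 CPM after phenobarbital in Han Wistar rats, under the vehicle range of 108 to 165 CPM, again not called (−0.62 ± 0.12, edgeR adjusted p = 0.117). Clofibrate, an activator of PPARalpha (600 mg/kg, Sprague Dawley, 4 days; 15% called), had 0 of the 8 genes called, and Fth1 came closest (0.30 ± 0.11, edgeR adjusted p = 0.087). After PCN 3 of the 6 genes tested were called, Hamp, Slc40a1 and Ftl1, the last at 612, 493, 563 and 672 CPM, against 322, 339, 272 and 324 CPM in vehicle rats (0.89 ± 0.15, edgeR adjusted p = 0.000441). After TCDD Slc40a1 was called besides Fth1, at 61.9, 53.8, 58 and 57.7 CPM, against 88.4, 78.7, 72.6 and 77.1 CPM in vehicle rats (−0.45 ± 0.08, edgeR adjusted p = 0.00362, and 0.164 with RIN as a covariate). Lapatinib rats (500 mg/kg, Sprague Dawley, 4 days) and their vehicle rats were sequenced in 2 batches, and none of the 8 genes was called in either (0% and 0.319% of genes called). The Hamp log2 fold changes were −0.74 in batch 1 and −1.04 in batch 10, and the Tfr2 level in vehicle rats averaged 481 CPM in batch 1 and 211 CPM in batch 10, so levels across batches were not compared.

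Some genes of iron handling outside the 8 were called in many comparisons too. Those named here were picked as the most often called of their lists, so they do not describe the lists as a whole. Over all genes and comparisons, 4.97% of tests were called higher and 4.55% lower. In the list of iron uptake, transport and storage Slc25a28 was called higher most often (20 higher, 0 lower of 97), followed by Slc39a14 (17 and 1), and Steap3 (2 higher, 28 lower) and Slc39a8, a manganese, zinc and iron importer (1 and 27), were lower most often. In the BMP and SMAD list these were Hfe (20 higher, 4 lower) and, on the lower side, Tmprss6 (1 and 18) and Atoh8 (3 and 17). Among heme genes Blvrb, a biliverdin reductase (28 and 2), and Slc48a1, a heme transporter (20 and 0), led the increases, and Lrp1, the hemopexin receptor (0 and 14), the decreases.

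Vehicle livers of the strains were compared over study and batch sums, 24 from Han Wistar livers and 34 from Sprague Dawley livers. Some animals entered more than 1 sum, by label or as matched sets. With each set of vehicle animals used once, 22 and 29 sums were left. All came from male rats given the same methylcellulose vehicle for the same number of days, and batch was a covariate. The strains differ in study and batch as well. With 52.6% of 14519 genes called, a call by itself says little here, and 3 of the 8 genes were called. Tfrc stood out by size, with 150 ± 29.3 CPM in Han Wistar and 81.4 ± 19.8 CPM in Sprague Dawley livers (SD; log2 fold change 0.95 ± 0.09, edgeR adjusted p = 2.88e-13). The ranges, 82.1 to 192 CPM in Han Wistar and 45.7 to 134 CPM in Sprague Dawley livers, overlapped, and within batch number 3 alone the fold change was 0.96. With each set of vehicle animals used once it was 0.94 (edgeR adjusted p = 5.27e-12). Ftl1 was lower, at 338 ± 60.8 CPM in Han Wistar and 429 ± 113 CPM in Sprague Dawley livers (−0.44 ± 0.09, edgeR adjusted p = 5.22e-05). With each set used once the Ftl1 fold change was −0.42 (edgeR adjusted p = 0.000201). Fth1 averaged 987 CPM in Han Wistar and 983 CPM in Sprague Dawley livers, so the plain means and the fitted fold change of −0.12 (edgeR adjusted p = 0.0407) differ in sign. Its call was not made within batch number 3 (edgeR adjusted p = 0.312) or with each set of vehicle animals used once (0.0702). Hamp averaged 63 CPM in Han Wistar and 71.8 CPM in Sprague Dawley livers and was not called (−0.25 ± 0.24, edgeR adjusted p = 0.399), nor were Tfr2, Slc40a1, Bmp6 and Id1.

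**Figure D5:**
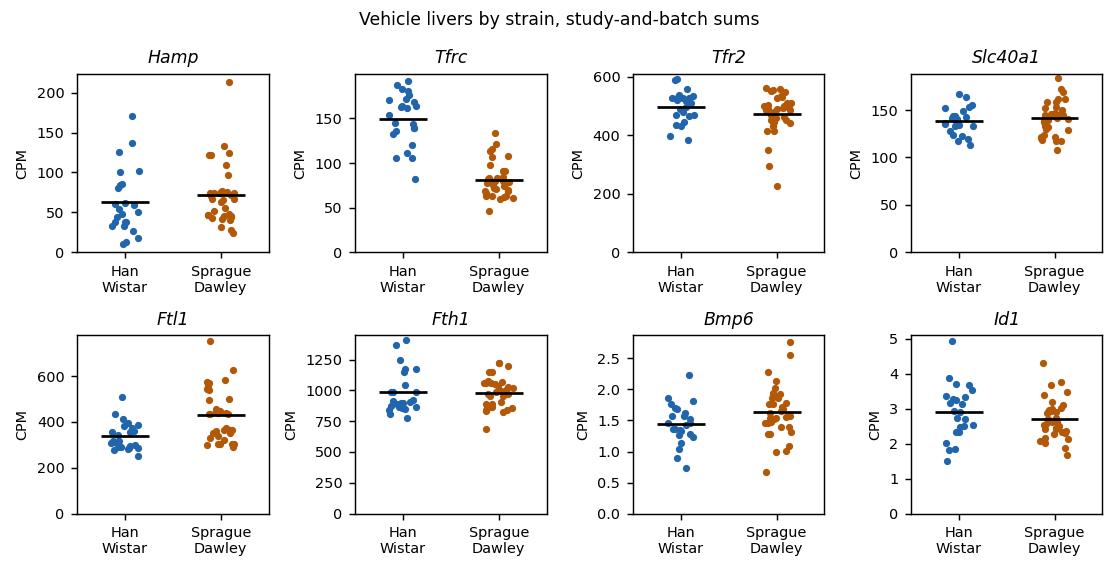
Level of the 8 genes in vehicle livers, in CPM, with 24 Han Wistar points on the left and 34 Sprague Dawley points on the right of each panel. A point is a study and batch sum and a line the mean. Tfrc separates the strains most, at a mean of 150 CPM in Han Wistar and 81.4 CPM in Sprague Dawley livers, while the Hamp points of both cover 10.1 to 213 CPM.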

How the data were processed

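Liver RNA of 743 libraries was purified from frozen tissue and made into libraries with a stranded mRNA kit, per the labels' protocols, and the build was Rnor_6.0, per the submitters' processing notes. The aligner and counting program are not given in the sources used here. The authors deposited expected counts per gene in an Ensembl and a RefSeq table, and FPKM values, which are scaled to gene length and depth. Expected counts were rounded, 88.05% of the Ensembl values being whole within 1e-06, and libraries of the same animal in a group were summed, so that n counts animals.

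Each treated group was tested against its vehicle group with edgeR 4.0.16 in R 4.3.3 (low counts filtered with filterByExpr, TMM scaling, robust quasi-likelihood F test, Benjamini-Hochberg adjustment over all genes of the comparison, threshold 0.05), with sex as a covariate for pyrazole and bardoxolone. The test was checked on data simulated with the means and library sizes of the flutamide, PCN and naproxen comparisons. Changes of 1 on the log2 scale were recovered in 75.8%, 66% and 32% of genes, in that order. Changes of 2 were recovered in 97%, 99% and 79.8%. Unchanged genes were called 7, 8 and 9 times. Many changes of 1 would thus be missed, most of all for naproxen, with 2 treated rats. CPM values use the TMM scaled totals of each comparison, so the CPM of a group can differ slightly between comparisons. SE is the log2 fold change divided by the square root of F. Nothing in the labels says that animals were housed or processed independently. The p-values set the group difference against the spread between these animals and treat the animals as independent. The repeat libraries of lapatinib were fitted but not counted, and for almorexant in the batch with 1 vehicle animal values are given with no test.

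The 8 genes and the gene lists (144 names, 133 matched) were chosen with earlier results of these data known. Animal values are given for the called comparisons with the largest changes of each gene (all 7 for Hamp, up to 3 in each direction for the others, with a mean of at least 1 CPM), for the 5 comparisons with most of the 8 genes called, and for the reference agents. Single genes of other lists named within a comparison were chosen after their values were seen. Like genes were sought among genes tested in every comparison with a mean of at least 1 CPM and a name that is not a clone or locus number, which is narrower than the rule first written. The alternatives tried were DESeq2 1.42.0, the RefSeq table, RIN as a covariate, RLE size factors, testing without the count filter, libraries of RIN under 7 removed, the deepest library of each animal, a threshold of 0.01 and leaving out each animal. Intervals cover counting error only.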

Additional observations from a re-analysis of the deposited data

Results flagged for a closer look

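In 5 of 65 groups examined, a single animal lay far from the rest for a gene, by its gap relative to the range of the group; chance gives about 1 in 20 such groups. For Hamp it was a vehicle rat of the NB-360 study with 202 CPM, the others having 80.4 to 94.3 CPM. For Ftl1 it was a carbamazepine rat with 820 CPM (others 720 to 727 CPM) and a vehicle rat of the naproxen study with 628 CPM (others 362 to 378 CPM). For Fth1 it was a vehicle rat of the ritonavir study with 1033 CPM (others 834 to 849 CPM). For Id1 it was a methimazole rat with 7.95 CPM (others 3.47 to 3.78 CPM).

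The log2 fold change of Fth1 after phenobarbital had opposite signs in the strains, −0.20 in Han Wistar and 0.12 in Sprague Dawley rats, which also differed in days of dosing. Neither was called, and the difference between them was not tested.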

How the results depend on the processing

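No paired analysis was possible because the labels give animals no number that ties a treated to a vehicle animal. Of the 40 called fold changes that were the largest of each gene, all 40 kept direction and call with RLE size factors and with the deepest library of each animal, and 39 with DESeq2, with no count filter and with the RefSeq table. With RIN as a covariate 21 kept both, 18 were no longer called and 1 reversed. The covariate takes a degree of freedom, and some estimates moved as well. Mean RIN was higher in treated animals in 71 comparisons and lower in 25. The cause of the lost calls was not tested. Of 189 refits without an animal, over 25 of these results, 28 lost the call. Of 18 further called results, in the 5 comparisons with most of the 8 genes called and after the reference agents, 12 were no longer called with RIN as a covariate, 2 with no count filter, 1 with the RefSeq table and 1 with the deepest library, and 4 of 56 refits without an animal lost the call.

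Comparisons called moved by more than 1.5 times as follows. The share of all genes called is not given for these settings, so the counts cannot be set against a background. DESeq2 called 15 for Hamp, 31 for Tfrc, 30 for Tfr2, 20 for Slc40a1, 16 for Fth1 and 13 for Id1. RIN as a covariate left 2 for Hamp, 5 for Tfrc, 7 for Tfr2, 15 for Ftl1, 2 for Fth1, 2 for Bmp6 and 3 for Id1. A threshold of 0.01 left 3 for Hamp, 10 for Tfrc, 8 for Tfr2, 6 for Slc40a1, 15 for Ftl1, 4 for Fth1, 3 for Bmp6 and 1 for Id1.

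Reversed fold changes with RIN as a covariate were Slc40a1 after carbamazepine (−0.09), NB-360 (−0.28) and bardoxolone (−1.31), Bmp6 after flutamide (0.23), Ftl1 (0.21) and Tfr2 (0.01) after TCDD, and Tfrc (0.23) and Fth1 (−0.04) after phenobarbital in Sprague Dawley rats. Leaving out each animal in turn spread Id1 after ticlopidine from −0.44 to 0.27, Hamp after bardoxolone from −0.44 to 0.72, Slc40a1 after bardoxolone from −0.13 to 0.79, Tfr2 after TCDD from −0.04 to 0.03, Ftl1 after TCDD from −0.18 to 0.01, Bmp6 after TCDD from −0.08 to 0.18 and Fth1 after PCN from −0.02 to 0.14, each crossing 0. The highest Hamp value after bardoxolone, without vehicle rat 3, passed the threshold of edgeR. Tfr2 after TCDD was 0.01 with RLE size factors, DESeq2 and no count filter, and 0.00 with the RefSeq table. That table also reversed Ftl1 after TCDD (0.16) and Bmp6 after phenobarbital in Han Wistar rats (−0.15) and clofibrate (−0.08). The deepest library reversed Bmp6 after clarithromycin (0.06). Within batch number 3 the strain values of Id1 (0.00), Slc40a1 (−0.02) and Tfr2 (−0.03) had the other sign. Of the reversed values, that of Slc40a1 after carbamazepine was the only called result. Depth limits Bmp6 and Id1, with medians of 1.45 and 2.54 CPM in vehicle animals, and Hamp in the PCN study.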
